A study of Mus musculus with 6 samples.

Results

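The proteasome genes of primary brite adipocytes were compared between cells depleted of the long noncoding RNA *Ctcflos* and control cells. The members are the genes for proteasome subunits, activators and assembly factors, chosen by symbol: every *Psma*, *Psmb*, *Psmc*, *Psmd*, *Psme*, *Psmf* or *Psmg* gene with a number, and *Pomp* and *Adrm1*. The immunoproteasome genes *Psmb8* and *Psmb9* and pseudogenes were left out of the members, and the values of both immunoproteasome genes are given beside their partners. This gave 49 genes of 52089 symbols, held in 365 of 168021 transcript lines. One of them, *Psmc3ip*, is taken by its name only, since its product works in meiotic recombination and is no proteasome subunit.

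Brite adipocytes are thermogenic fat cells that arise within white adipose tissue. Here they were differentiated from stromal-vascular cells of the inguinal white adipose tissue of 129SvEv mice, as the labels name the strain, which the study's methods give as male and 5 to 6 weeks old. Cells were induced for 2 days at sub-confluence and differentiated for 1 day, with rosiglitazone present in both groups, reverse transfected with 50 nM of an LNA Gapmer antisense oligonucleotide and harvested 24 h later. The oligonucleotide targeted *Ctcflos* in 3 libraries (*Ctcflos* KD) and was nontargeting in the other 3 (control). The sources used here do not say whether the 3 libraries of a group come from separate cell preparations, so that p-values measure only the spread between these libraries, which may be technical.

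The proteasome is the protease of the cytosol and nucleus that degrades proteins tagged with ubiquitin. Its barrel-shaped 20S core has outer rings of alpha subunits, which gate the entry, and inner rings of beta subunits, of which *Psmb5*, *Psmb6* and *Psmb7* carry the active sites. The 19S regulatory particle has a base, whose ring of ATPases unfolds substrates and opens the gate, and a lid, which removes ubiquitin. Dedicated chaperones build the core and the base, and other activators can replace the 19S particle. In thermogenic fat, proteasome activity is known to depend on the transcription factor encoded by *Nfe2l1*, which activates proteasome genes when the proteasome is impaired.

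Of the 6 libraries, those of *Ctcflos* KD held 75.5, 75.1 and 60.8 mio mapped reads and those of controls 78.0, 79.2 and 62.9 mio, as recovered from the values. *Ctcflos*, listed as *1300015D01Rik*, was at 0.0969, 0.0705 and 0.210 RPKM (reads per kilobase of a transcript and per mio mapped reads of the library) in *Ctcflos* KD replicates 1 to 3 and at 0.748, 0.751 and 0.840 RPKM in controls. The groups did not overlap, and *Ctcflos* KD replicate 3 kept the highest level of the target among the KD libraries. All of these values lie under 1 RPKM, the mean that a gene needed to enter the main test. Of the adipocyte markers, 7 genes summed to 3627 to 4814 RPKM in *Ctcflos* KD and 5065 to 5778 RPKM in controls, and *Cebpa* and *Ucp1* fell. Most of the sum is *Fabp4*, at means of 3291 RPKM in KD and 4041 RPKM in controls, and *Adipoq*, at 826 and 1187 RPKM. Neither passed the test (limma, adjusted p = 0.16 and 0.069). The leukocyte genes *Ptprc* and *Cd68* summed to 2.16 to 4.12 RPKM in *Ctcflos* KD and 0.671 to 1.97 RPKM in controls. *Cd68*, a lysosomal protein of macrophages, rose, while *Ptprc*, the pan-leukocyte surface marker, was at most 0.0486 RPKM in any library. The calls of *Cebpa*, *Ucp1* and *Cd68* were each lost when some single library was omitted. The endothelial genes *Pecam1* and *Cdh5* summed to 0.420 to 0.611 RPKM in *Ctcflos* KD and 0.650 to 0.846 RPKM in controls, and the epithelial genes *Epcam* and *Krt8* to at most 0.290 RPKM in any library. The part of these differences in the proteasome values was not tested, and in bulk RNA fewer cells of a type cannot be told apart from less RNA per cell.

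The windows shown were picked because they hold the core of the antioxidant response element, found in 7 of the 44 member windows, and because their genes went in different directions. They are 3 windows of 300 bases, from 250 bases before to 50 after the RefSeq start (GRCm38.p6), read 5′ to 3′ on the strand of the gene. They belong to *Psmc6*, which rose, to *Psmb6*, which fell, and to *Psmb5*, which did not pass the test. Capitals mark TGACNNNGC, the core of the antioxidant response element, the kind of site bound by the factor of *Nfe2l1*, searched on both strands.
Psmc6 promoter, chr14:45329574-45329873, plus strand: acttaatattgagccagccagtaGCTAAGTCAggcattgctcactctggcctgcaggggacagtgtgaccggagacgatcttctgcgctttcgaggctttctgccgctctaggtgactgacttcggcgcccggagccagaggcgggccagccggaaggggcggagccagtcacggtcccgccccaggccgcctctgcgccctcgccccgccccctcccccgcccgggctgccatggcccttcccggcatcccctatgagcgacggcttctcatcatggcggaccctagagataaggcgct
Psmb6 promoter, chr11:70525107-70525406, plus strand: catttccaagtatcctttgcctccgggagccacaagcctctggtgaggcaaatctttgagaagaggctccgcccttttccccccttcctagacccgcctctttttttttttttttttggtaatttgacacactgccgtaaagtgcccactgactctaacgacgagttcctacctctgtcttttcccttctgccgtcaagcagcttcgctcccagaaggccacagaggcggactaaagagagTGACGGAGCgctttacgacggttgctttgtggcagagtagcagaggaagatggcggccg
Psmb5 promoter, chr14:54617946-54618245, minus strand: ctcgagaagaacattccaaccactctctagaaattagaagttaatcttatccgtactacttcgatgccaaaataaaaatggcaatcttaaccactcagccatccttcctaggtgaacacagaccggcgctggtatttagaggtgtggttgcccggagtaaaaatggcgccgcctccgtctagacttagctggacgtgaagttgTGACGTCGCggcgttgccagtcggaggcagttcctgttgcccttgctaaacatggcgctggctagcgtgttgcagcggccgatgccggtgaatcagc
Each of the 3 windows holds the core once, on the other strand in *Psmc6* and on the strand of the gene in *Psmb6* and *Psmb5*. In *Psmb6* and *Psmb5* the match begins 9 and 47 bases before the start, and in *Psmc6* 227 bases before it. Of the other called members with a window, *Psmb4*, *Psmc2* (with 2 windows) and *Psme3* held no match. Among the 44 windows that matched 41 members, 15.9% hold TGACNNNGC, against 12.4% of all 32851 promoters. CCAAT, the box bound by NF-Y, was found in 34.1% of member windows and 37.4% of all promoters. A match describes the letters of a window and is no evidence of binding.

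In the comparison of *Ctcflos* KD with controls, 3 of 6 ATPases of the 19S base, *Psmb4* and 1 of 5 assembly chaperones of the core rose. The active-site subunit *Psmb6* and the activator *Psme3* fell. Each of these calls was lost without control replicate 1, and also without control replicate 3. Of the 49 members, 46 reached a mean of 1 RPKM and were tested. Of these, 5 rose, *Psmc2*, *Psmc6*, *Psmb4*, *Psmc3* and *Psmg2*, and 2 fell, *Psmb6* and *Psme3* (limma, Benjamini-Hochberg adjusted p under 0.05 over all 11701 genes tested). The 5 genes that rose make up 10.9% of the members, near the 11.5% of all genes tested that were called higher, and the 2 that fell make up 4.3%, against 12.4% called lower among all genes. The median log2 fold change of the members was 0.19 against 0.028 over all genes tested, and 31 members had a positive and 15 a negative value. Positive values made up 67.4% of the members, against 53.2% of all genes tested. All fold changes here are on the scale of log2(RPKM + 1), which understates changes of low genes.

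Without the correction for multiple testing, 12 members were higher and 2 lower at p under 0.05, where the background was 20% higher and 18.9% lower. For 5 members the adjusted p lay between 0.05 and 0.10, namely *Psmc5*, *Psmd11*, *Psmd2*, *Psmc4* and *Psmd9*. Every *Ctcflos* KD library lay above every control library for 16 members, or 34.8%, against a background of 22.9%. Every KD library lay below every control for 3 members, *Psmb6*, *Psme3* and *Psme4*, or 6.5%, against 21.9%. These shares are descriptions, and no test of the members against the other genes was made.

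**Figure D1:**
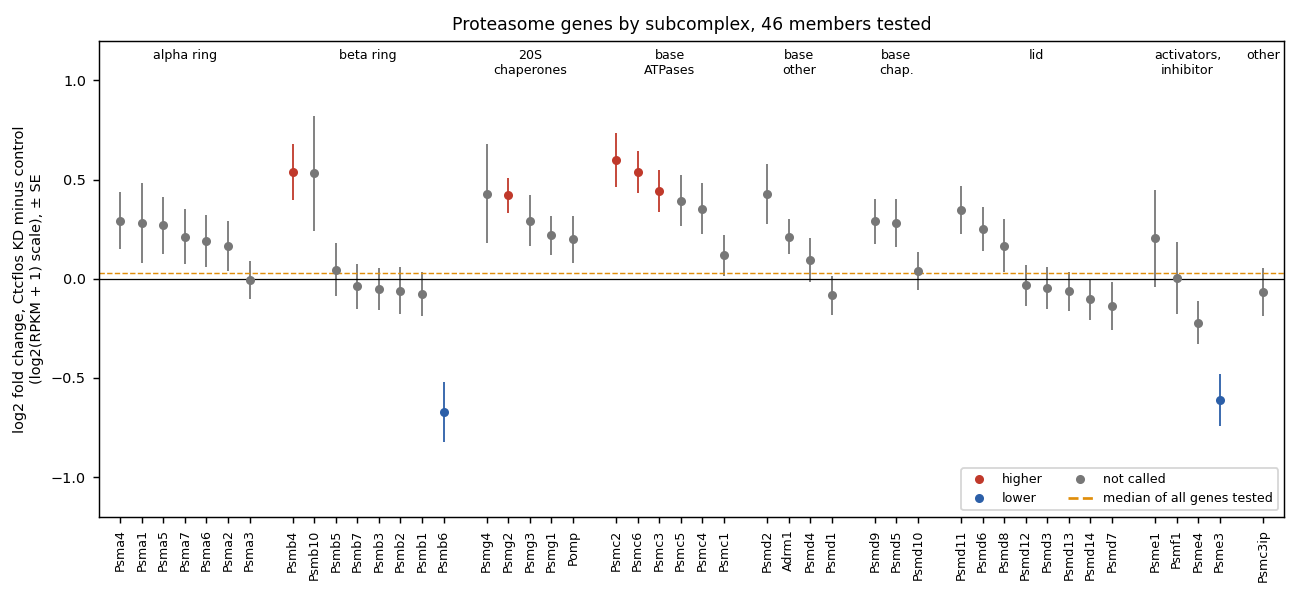
Log2 fold change of each of the 46 members tested, *Ctcflos* KD minus control on the log2(RPKM + 1) scale (vertical axis), by subcomplex and ordered by value within it; points are limma estimates and bars ± SE, coloured by call at an adjusted p under 0.05, and the dashed line is the median of all genes tested. The 6 base ATPases all lie above 0, the 8 lid genes lie on both sides of it, and *Psmb6* and *Psme3* lie apart at the bottom.

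The *Ctcflos* KD libraries did not move alike. Relative to the control mean, the median difference of the 46 members was 0.20 in *Ctcflos* KD replicate 1, 0.28 in replicate 2 and 0.028 in replicate 3 on the log2 scale. Replicate 3 was thus closest to the controls in the members. It also kept the most *Ctcflos*, and a link between the levels was not tested. Of the adipocyte markers, *Pparg*, *Cebpa*, *Fabp4* and *Adipoq* were closest to controls in replicate 3, and *Plin1* in replicate 1. *Ucp1* and *Cidea* were lowest in replicate 3, with *Ucp1* at 12.4 RPKM against 23.6 and 26.1 RPKM in replicates 1 and 2. When replicate 3 was left out, 17 members rose, or 37.0%, and 2 fell, and over all genes 23.3% were then called higher and 17.8% lower. The 12 members that joined the 5 are *Psma5*, *Psma7*, *Psmb10*, *Psmc4*, *Psmc5*, *Psmd2*, *Psmd5*, *Psmd9*, *Psmd11*, *Psmg1*, *Psmg3* and *Psmg4*, while *Psmb6* and *Psme3* were again the members called lower. Leaving out *Ctcflos* KD replicate 1 or 2 left 2 members that rose, *Psmc6* and *Psmg2*, and 0 that fell (2 at an unadjusted p under 0.05 in each case). Over all genes, 3.85% were then called higher and 6.22% lower without replicate 1, and 3.80% higher and 5.51% lower without replicate 2, near the 4.3% of members that rose. Without control replicate 1 or 3, 0 members were called in either direction by limma, with 5 higher and 2 lower, or 9 higher and 2 lower, at an unadjusted p under 0.05. Calls were then few over all genes too, with 1.13% higher and 2.47% lower without control replicate 1, and 1.11% higher and 2.04% lower without control replicate 3. Without control replicate 2, 4 rose, *Psmc2*, *Psmc3*, *Psmc6* and *Psmg2*, or 8.7% against 5.34% of all genes, and *Psme3* fell, or 2.2% against 8.19%.

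**Figure D2:**
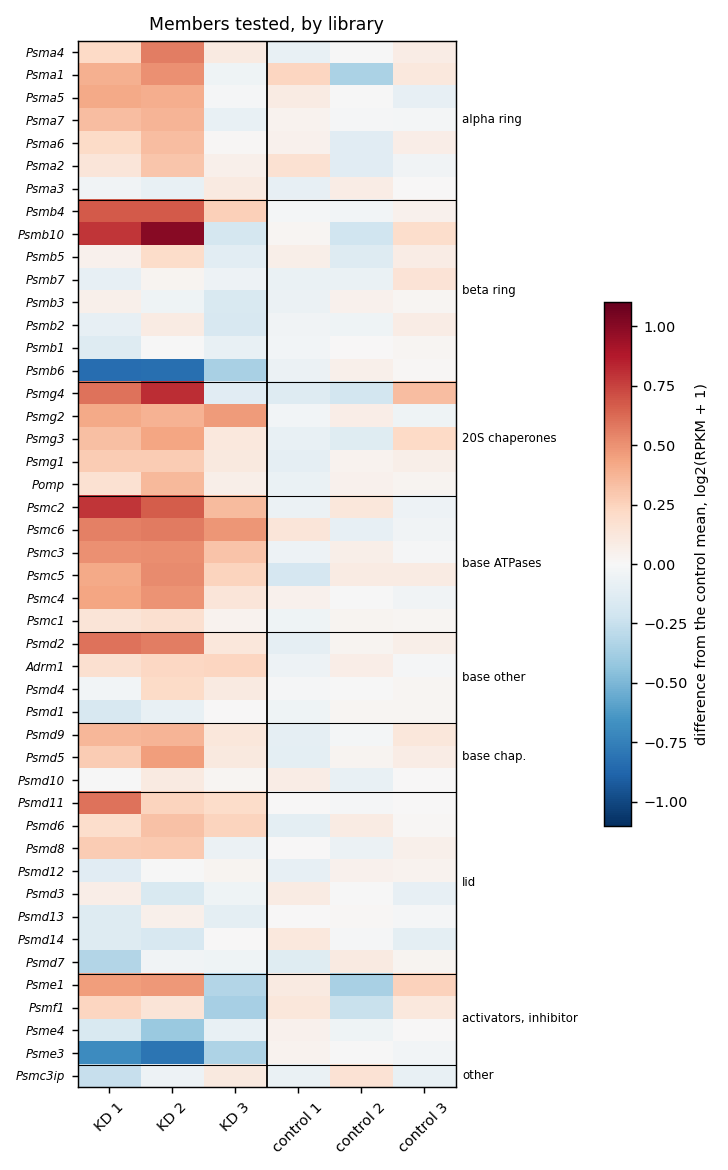
Difference of each library from the control mean on the log2(RPKM + 1) scale (colour, red higher and blue lower), for the 46 members tested (rows, by subcomplex) in the 3 *Ctcflos* KD and 3 control libraries (columns). The third KD column is paler than the first and second, with a median over members of 0.028 against 0.20 and 0.28, while *Psmc6* and *Psmg2* keep their colour in it.

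The ATPases of the 19S base were the subcomplex in which the groups were most often separate. They form a hexameric ring of different subunits, and all 6 had every *Ctcflos* KD library above every control library, against 22.9% of all genes tested. This is not particular to the proteasome. In the TRiC chaperonin, another complex treated below, 7 of 8 genes were separate in this direction and 1 in the other. *Psmc2*, which lies at chr5:21785283-21803787 (plus strand, Gencode vM21), was at 11.8, 10.8 and 8.48 RPKM in *Ctcflos* KD and at 6.11, 7.09 and 6.14 RPKM in controls. The lowest KD value, that of replicate 3, was still above the highest control. *Psmc2* rose by 0.60 ± 0.13 on the log2 scale (SE, adjusted p = 0.019). *Psmc6*, at chr14:45329788-45349705 (plus strand), was at 14.7, 14.9 and 14.0 RPKM in KD and 10.7, 9.01 and 9.39 RPKM in controls, so that all 3 KD libraries were close to each other. It rose by 0.54 ± 0.11 (adjusted p = 0.014). *Psmc3*, at chr2:91054009-91066369 (plus strand), was at 11.3, 11.4 and 9.78 RPKM in KD and 7.35, 8.09 and 7.59 RPKM in controls and rose by 0.44 ± 0.10 (adjusted p = 0.022). In annotation it overlaps *Slc39a13* on the opposite strand, which was at 2.48 RPKM in KD and 2.90 RPKM in controls on average, a difference in the other direction that did not pass the test (adjusted p = 0.23). The libraries were made with a stranded kit, and whether strand was used in counting is not given in the sources used here.

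Among the other ATPases, *Psmc5* went from 12.6 ± 1.46 to 16.9 ± 1.73 RPKM (SD, n = 3) and *Psmc4* from 16.6 ± 0.521 to 21.6 ± 2.92 RPKM, with adjusted p = 0.059 and 0.078. *Psmc1*, with 16.2 RPKM in controls and 17.7 RPKM in KD, was the smallest difference in the ring at 0.12 on the log2 scale (adjusted p = 0.42). For the 3 ATPases that rose, the adjusted p ranged from 0.0021 to 0.088 for *Psmc2*, from 0.0063 to 0.076 for *Psmc6* and from 0.0056 to 0.10 for *Psmc3* when single libraries were omitted. *Psmc6* lost its call without control replicate 1 (adjusted p = 0.051) or 3 (0.076), and *Psmc2* and *Psmc3* lost it without either of these or without *Ctcflos* KD replicate 1 or 2.

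The other base subunits bind ubiquitin or its carriers. *Psmd2*, a scaffold that docks ubiquitin receptors, was at 24.1 ± 4.29 RPKM in KD and 17.5 ± 1.07 RPKM in controls (adjusted p = 0.072), and *Adrm1*, a ubiquitin receptor, at 5.04 ± 0.120 and 4.21 ± 0.234 RPKM (adjusted p = 0.12). For both, KD and control libraries did not overlap. *Psmd4*, another ubiquitin receptor, and *Psmd1*, a scaffold, overlapped between groups, with log2 differences of 0.095 and −0.084. None of the 4 was called with limma, while 2 were higher and 0 lower at an unadjusted p under 0.05, and the median of the 4 was 0.15.

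Of the 8 subunits of the lid, 3 had positive and 5 negative values, with a median of −0.040, and 0 were called with limma (1 higher and 0 lower at an unadjusted p under 0.05). *Psmd11*, a scaffold subunit between lid, base and core, was highest in relation to controls, at 4.47 ± 0.860 against 3.27 ± 0.0298 RPKM (adjusted p = 0.072), with *Ctcflos* KD replicate 1 at 5.46 RPKM standing above replicates 2 and 3 at 4.05 and 3.91 RPKM. *Psmd6* was at 23.7 ± 1.12 RPKM in KD and 19.7 ± 1.40 RPKM in controls, without overlap (adjusted p = 0.13). *Psmd14*, the metalloprotease that cuts off ubiquitin chains, was at 5.30 ± 0.417 RPKM in KD and 5.77 ± 0.524 RPKM in controls, and its partner *Psmd7* at 7.25 ± 0.884 and 8.04 ± 0.728 RPKM, with overlapping libraries for both. *Psmd8*, *Psmd12*, *Psmd3* and *Psmd13* also overlapped, at log2 differences of 0.17, −0.033, −0.047 and −0.064. *Psmd8* was the most abundant lid gene, at 32.0 RPKM in KD and 28.2 RPKM in controls.

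The mean RPKM of the 6 ATPases divided by that of the 8 lid subunits was 1.36, 1.34 and 1.23 in *Ctcflos* KD and 1.07, 1.08 and 1.05 in controls. The ratio was thus higher in each KD library than in each control, with KD replicate 3 nearest to the controls, and a two-sided exact permutation test gave p = 0.1, below which a design of 3 libraries against 3 cannot go. A ratio taken within a library does not depend on its scaling. It restates the values of the subunits given above, in the same libraries, and is no further evidence.

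Among the active-site subunits of the core, *Psmb6* fell while *Psmb5* and *Psmb7* did not pass the test. *Psmb6*, whose product cleaves after acidic residues, lies at chr11:70525367-70527858 (plus strand). It was at 12.3, 12.4 and 17.6 RPKM in *Ctcflos* KD and at 21.7, 23.7 and 23.0 RPKM in controls. The groups did not overlap, and KD replicate 3 was nearest to the controls. *Psmb6* fell by 0.67 ± 0.15 on the log2 scale (SE, adjusted p = 0.019), to 61.9% of the control mean. *Psmb5*, whose product cleaves after hydrophobic residues, at chr14:54614119-54618022 (minus strand), was at 38.8, 43.4 and 34.5 RPKM in KD and 39.1, 33.9 and 39.6 RPKM in controls (log2 difference 0.046 ± 0.13, adjusted p = 0.82). *Psmb7*, whose product cleaves after basic residues, at chr2:38588036-38644087 (minus strand), was at 14.9, 16.3 and 15.4 RPKM in KD and 15.2, 15.1 and 17.8 RPKM in controls (−0.038 ± 0.11, adjusted p = 0.82). For both genes KD and control values were interleaved. *Psmb7* overlaps *Nek6* on the opposite strand.

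The ratio of *Psmb6* to the mean of *Psmb5* and *Psmb7* was 0.458, 0.415 and 0.707 in KD and 0.801, 0.965 and 0.801 in controls, lower in each KD library (p = 0.1 in the exact permutation test, two-sided, which can give no smaller value). This ratio restates the values of these genes given above and is no further evidence. All 6 transcript lines of *Psmb6* with a mean of at least 1 RPKM were lower in KD without overlap, at 0.607 to 0.726 of the control mean, although lines of a gene share reads. Without *Ctcflos* KD replicate 3, the log2 difference of *Psmb6* was −0.83 (adjusted p = 0.0012), and without any other library the adjusted p was between 0.059 and 0.083.

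Cells can replace the 3 active-site subunits by those of the immunoproteasome, which interferon induces: *Psmb9* replaces *Psmb6*, *Psmb10* replaces *Psmb7* and *Psmb8* replaces *Psmb5*. *Psmb10*, at chr8:105935735-105938444 (minus strand), was at 29.6, 34.7 and 14.5 RPKM in *Ctcflos* KD and 17.1, 14.3 and 19.4 RPKM in controls. KD replicates 1 and 2 stood above all controls and replicate 3 lay within their range, and *Psmb10* did not pass the test (0.53 ± 0.29, adjusted p = 0.21, and from 0.0037 to 0.50 when single libraries were omitted). Without KD replicate 3 it rose by 0.89 ± 0.15. *Psmb8* showed the same order of libraries, with 46.0, 57.9 and 19.4 RPKM in KD and 24.5, 18.4 and 29.1 RPKM in controls (adjusted p = 0.23), and so did *Psmb9*, with 14.2, 16.1 and 5.28 RPKM in KD and 9.78, 5.06 and 9.91 RPKM in controls (adjusted p = 0.47). Both rose without KD replicate 3 (adjusted p = 0.0051 and 0.031), and when other single libraries were omitted the adjusted p reached 0.54 and 0.86.

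The ratio of *Psmb8* to *Psmb5* was 1.19, 1.34 and 0.563 in KD and 0.627, 0.543 and 0.733 in controls. The ratio of *Psmb10* to *Psmb7* was 1.98, 2.12 and 0.944 in KD and 1.13, 0.943 and 1.09 in controls, and that of *Psmb9* to *Psmb6* was 1.15, 1.30 and 0.299 in KD and 0.450, 0.214 and 0.431 in controls. In all 3 ratios KD replicates 1 and 2 were above the controls while replicate 3 was within their range (exact two-sided permutation tests, p = 0.3 each). Together, these are 6 ratios with the ATPase ratio, the *Psmb6* ratio and the ratio of *Psme3* to *Psme1*, and none can pass a threshold of 0.05 in this design, before or after adjustment.

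**Figure D3:**
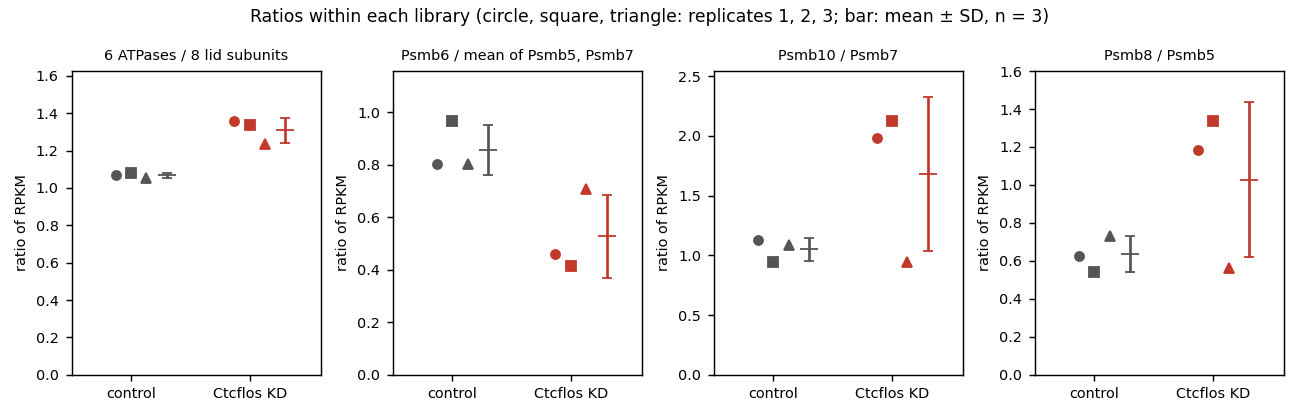
Ratios of RPKM within each library (vertical axes from 0) for controls (grey) and *Ctcflos* KD (red); symbols are replicates 1 to 3 and bars mean ± SD, n = 3. The ATPase to lid ratio is higher and the *Psmb6* ratio lower in each KD library than in each control, whereas in both immunoproteasome ratios the third KD library lies within the control range.

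Of the beta subunits without an active site, *Psmb4*, which helps to hold the assembled core together, rose. It lies at chr3:94884093-94886961 (minus strand) and was at 37.4, 37.6 and 28.0 RPKM in KD and 22.8, 22.6 and 23.9 RPKM in controls. The groups did not overlap, and the rise was 0.54 ± 0.14 (adjusted p = 0.031). Its adjusted p was 0.0029 without *Ctcflos* KD replicate 3 and between 0.083 and 0.11 without any other library. *Psmb1*, the most abundant member in controls, was at 39.9 ± 2.06 RPKM in KD and 42.1 ± 0.896 RPKM in controls. *Psmb2* was at 28.4 and 29.6 RPKM and *Psmb3* at 10.3 and 10.7 RPKM, and libraries of the groups overlapped for all 3. Of the 8 beta genes tested, 1 rose and 1 fell, and the median was −0.045. These are 12.5% each, near the 11.5% called higher and 12.4% called lower over all genes tested.

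In the alpha ring, 6 of 7 genes tested had positive values, with a median of 0.21, and 0 were called (0 higher and 0 lower at an unadjusted p under 0.05, limma). *Psma4*, the one alpha gene without overlap, was at 18.1 ± 3.34 RPKM in KD and 14.5 ± 0.887 RPKM in controls (adjusted p = 0.17). *Psma6*, the most abundant alpha gene, was at 35.5 ± 4.07 and 31.0 ± 2.42 RPKM. *Psma1* was at 27.2 and 22.3 RPKM, *Psma5* at 16.6 and 13.5, *Psma7* at 11.8 and 9.95, and *Psma2* at 12.8 and 11.3 RPKM in KD and controls, respectively. Within the ring, the library medians were 0.22, 0.37 and 0.016 above the control mean in KD replicates 1 to 3. *Psma3* was listed at 1.13 RPKM in KD and 1.14 RPKM in controls, far below the other ring members although the ring holds each subunit in equal number, and its value is uncertain.

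Other activators can cap the core in place of the 19S particle. *Psme3*, which encodes a nuclear activator that works without ubiquitin and ATP, lies at chr11:101316213-101323537 (plus strand). It was at 3.14, 2.83 and 4.30 RPKM in *Ctcflos* KD and 5.85, 5.64 and 5.55 RPKM in controls, so that even KD replicate 3 was below the lowest control. *Psme3* fell by 0.61 ± 0.13 on the log2 scale (adjusted p = 0.017), to 60.2% of the control mean. The adjusted p was 0.00096 without *Ctcflos* KD replicate 3 and at most 0.076 with another library left out, and the call was lost without KD replicate 1 or 2 or control replicate 1 or 3. *Psme4*, another nuclear activator, was at 2.91, 2.31 and 3.15 RPKM in KD and 3.54, 3.25 and 3.41 RPKM in controls, also without overlap, and did not pass the test (−0.22 ± 0.11, adjusted p = 0.17). *Psme1*, a subunit of the interferon-induced activator, was at 15.0, 15.1 and 8.26 RPKM in KD and 11.4, 8.07 and 12.9 RPKM in controls (adjusted p = 0.56), with the order of KD libraries seen for *Psmb8* to *Psmb10*. That order is not particular to these genes. *Psma1* of the alpha ring had it too, at 29.0, 31.5 and 21.1 RPKM in KD and 26.0, 17.0 and 23.9 RPKM in controls. The ratio of *Psme3* to *Psme1* overlapped between groups (exact two-sided permutation test, p = 0.3). *Psmf1*, an inhibitor of the core, was at 5.10 ± 1.29 RPKM in KD and 5.02 ± 0.842 RPKM in controls.

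Of the chaperones that assemble the core, all 5 had positive values, with a median of 0.29, and 1 rose. That is 20%, against 11.5% called higher over all genes tested, where 53.2% of values were positive. *Psmg2*, a partner of *Psmg1* in the building of the alpha ring, was at 4.37, 4.23 and 4.55 RPKM in *Ctcflos* KD and 2.94, 3.24 and 2.90 RPKM in controls, and KD replicate 3 was the highest. It rose by 0.42 ± 0.089 (adjusted p = 0.017, from 0.0100 to 0.086 when single libraries were omitted, not called without control replicate 1 or 3). *Psmg1* was at 3.58 ± 0.311 RPKM in KD and 2.93 ± 0.231 RPKM in controls, without overlap (adjusted p = 0.14). *Pomp*, which matures the core and is the most abundant of the chaperones, was at 27.5 ± 2.93 and 23.7 ± 1.15 RPKM, without overlap (adjusted p = 0.26). *Psmg3* and *Psmg4*, partners in a further chaperone pair, were at 3.60 and 8.13 RPKM in KD and 2.76 and 5.64 RPKM in controls, with overlap. For *Psmg4*, KD replicates 1 and 2 were at 8.90 and 10.5 RPKM and replicate 3 at 4.99 RPKM.

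The 3 chaperones of the base, *Psmd5*, *Psmd9* and *Psmd10*, hold ATPases before the ring closes. *Psmd5* was at 10.5 ± 1.38 RPKM in KD and 8.40 ± 0.620 RPKM in controls, without overlap (adjusted p = 0.13), and *Psmd9* at 3.41 ± 0.428 and 2.60 ± 0.295 RPKM (adjusted p = 0.094). *Psmd10* was at 6.53 and 6.33 RPKM. None was called with limma, while 2 were higher and 0 lower at an unadjusted p under 0.05. In annotation *Psmd9* overlaps *Hpd* and *Psmd5* overlaps *Cutal*.

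**Figure D4:**
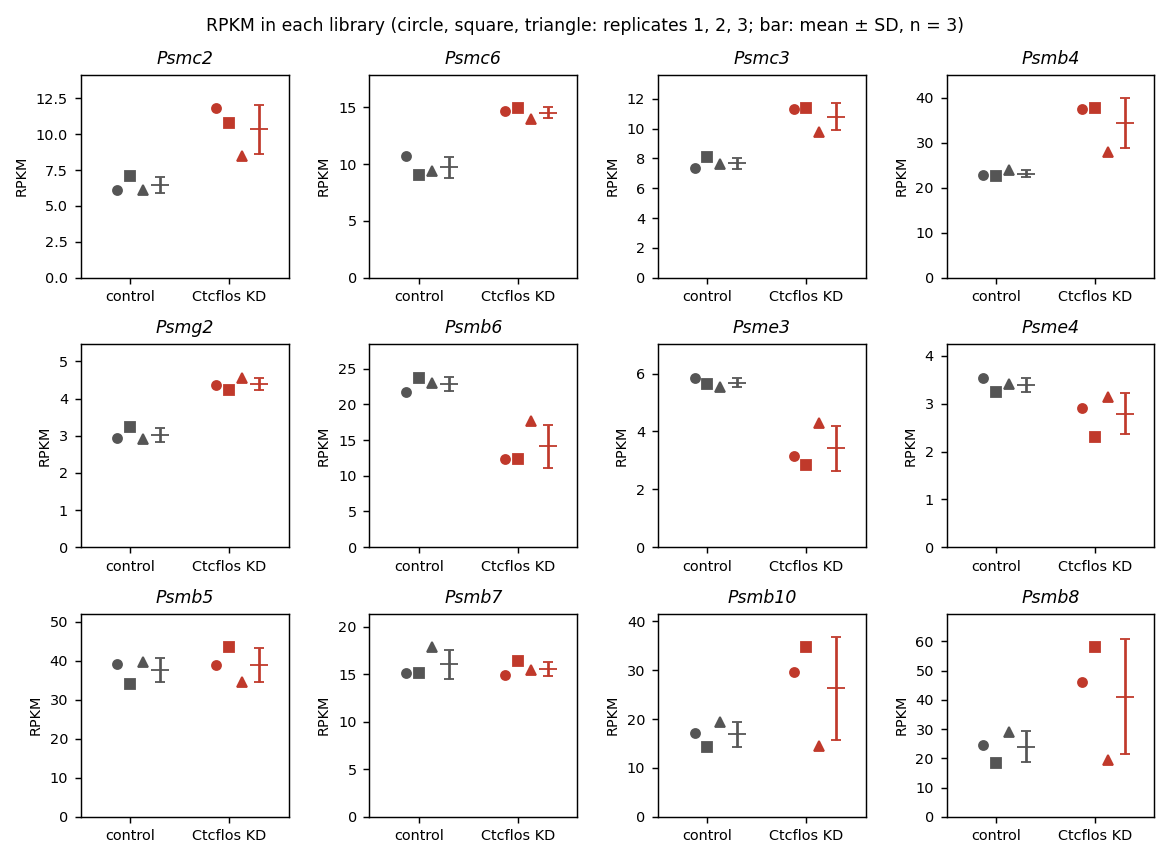
RPKM in each library (vertical axes from 0) for the 7 members called, *Psme4*, the other active-site genes and *Psmb8*; controls are grey, *Ctcflos* KD red, symbols are replicates 1 to 3, and bars mean ± SD, n = 3. *Psmc6* and *Psmg2* have tight KD values above all controls, *Psmb6* and *Psme3* lie below them with the third KD library nearest, and in *Psmb10* and *Psmb8* the third KD library lies within the control range.

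Levels of the members per length spanned a wide range in controls, from 1.14 RPKM for *Psma3* to 42.1 RPKM for *Psmb1* among those tested. Under the filter were *Psma8*, the testis form of an alpha subunit, at 0.0786 RPKM in controls, *Psmb11*, the thymus form of a beta subunit, at 0.00342 RPKM, and *Psme2*, the partner of *Psme1*, at 0.824 RPKM in controls and 0.861 RPKM in KD. *Psme2* has a near-identical gene copy, so that its low value is uncertain. *Psmc3ip* was at 1.14 RPKM in KD and 1.24 RPKM in controls. For these 3 genes under the filter and for *Psmc3ip*, libraries of the groups overlapped.

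The transcript lines of a gene mostly moved together. Of 311 lines of members with a mean of at least 1 RPKM, 291 had the direction of their gene, and in 39 of the 46 members tested all such lines had it. Among the genes called, all 13 lines of *Psmc3*, 6 of *Psmb4* and 5 each of *Psmc2*, *Psmc6* and *Psmg2* were higher in KD, and all 6 of *Psmb6* and 5 of *Psme3* were lower. In *Psma3*, 2 of 7 lines were higher and 5 lower, at 0.834 to 1.61 of the control mean. Since lines share reads, this is no count of independent measurements.

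Genes that work beside the proteasome gave a mixed picture. Of 20 partners and regulators tested, *Psmb8* and *Psmb9* among them, 3 rose and 1 fell, with a median of 0.29. These are 15% and 5%, against 11.5% called higher and 12.4% called lower over all genes tested. *Uchl5*, a deubiquitinase bound to *Adrm1*, rose by 0.47 ± 0.096 (adjusted p = 0.015), *Ubqln4*, a shuttle for ubiquitinated proteins, by 0.58 ± 0.13 (adjusted p = 0.019) and *Zfand2a*, a stress-induced proteasome adaptor, by 0.61 ± 0.14 (adjusted p = 0.022). *Ngly1*, the glycanase that processes the factor of *Nfe2l1*, fell by 0.55 ± 0.13 (adjusted p = 0.020). *Nfe2l1* was the most abundant of the list in controls, at 44.9, 41.6 and 46.8 RPKM. In KD *Nfe2l1* was at 36.8, 38.2 and 38.5 RPKM. It was lower in each KD library than in each control and did not pass the test (−0.23 ± 0.11, adjusted p = 0.17). *Ubqln1*, another shuttle and the second most abundant in controls, was at 27.0 ± 2.64 and 28.3 ± 1.43 RPKM.

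Of 13 genes for ubiquitin, its activating enzymes and the segregase p97 with its cofactors, 1 rose and 2 fell, with a median of 0.20. These are 7.7% and 15.4%, near the 11.5% and 12.4% over all genes tested. *Vcp*, which encodes p97, rose by 0.37 ± 0.11 (adjusted p = 0.045), from 12.4 to 16.3 RPKM. Its cofactors *Faf1*, which went from 2.91 to 1.24 RPKM, and *Ufd1l*, which went from 3.23 to 1.85 RPKM, fell by 0.82 ± 0.13 and 0.58 ± 0.12 (adjusted p = 0.0078 and 0.015). *Ubb*, a polyubiquitin gene and the most abundant of the list in controls, was at 55.3 ± 7.48 RPKM in KD and 48.0 ± 4.47 RPKM in controls, with overlap (adjusted p = 0.35).

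The COP9 signalosome and the TRiC chaperonin are further multisubunit complexes, the former a relative of the lid that removes NEDD8 from ubiquitin ligases and the latter a ring that folds actin and tubulin. Of 10 signalosome genes, *Cops2*, *Cops4* and *Cops8* rose, by 0.43, 0.39 and 0.51, and *Cops7a* fell by 0.80, with a median of 0.10. These are 30% and 10%, against 11.5% higher and 12.4% lower over all genes tested. The most abundant were *Myeov2* and *Cops2*, at 34.2 and 21.6 RPKM in KD. Of 8 chaperonin genes, *Cct2*, *Cct3*, *Cct5*, *Cct6a* and *Cct8* rose by 0.53 to 0.84 and *Cct4* fell by 0.46, with a median of 0.55. These are 62.5% and 12.5% of the chaperonin genes. *Cct5* and *Tcp1* were the most abundant in controls, at 33.8 and 25.7 RPKM. The adjusted p of these 10 genes lay between 0.0052 and 0.036. Each of the 4 lists, like the members, thus holds genes that rose and genes that fell, and no test of one list against another was made. Of the 17 calls in these lists, those of *Faf1* and *Cops7a* held whichever single library was omitted, and each of the others was lost in at least 2 of the 6 cases.

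**Figure D5:**
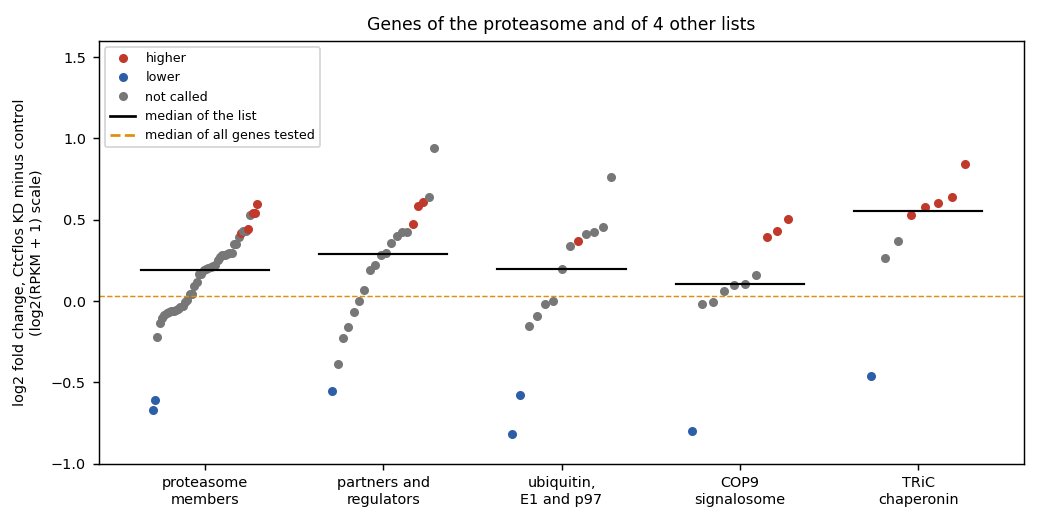
Log2 fold change, *Ctcflos* KD minus control on the log2(RPKM + 1) scale (vertical axis), of each gene tested in the proteasome members and in 4 other lists (horizontal axis), coloured by call at an adjusted p under 0.05; black lines are list medians and the dashed line is the median of all genes tested. The medians are 0.19 for the members, 0.29, 0.20 and 0.10 for partners, ubiquitin genes and signalosome, and 0.55 for the chaperonin, against 0.028 for all genes.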

How the data were processed

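The authors deposited 1 table of RPKM values (reads per kilobase of transcript and per mio mapped reads) for 6 libraries, 3 per group, with 168326 transcript lines. The counting tool, the annotation and the use of strand for this table are not given in the sources used here. The unit was recorded as other because the deposited values carry decimal commas. 305 exact repeat lines were removed, and a gene is the mean RPKM over the lines of its symbol. Genes of mean RPKM at least 1 were tested with limma 3.58.1 (limma-trend, R 4.3.3) on log2(RPKM + 1), KD against control, with Benjamini-Hochberg adjustment over all genes. Genes under the filter came from a fit without it. Ratios and single genes were also compared by two-sided exact permutation tests (scipy 1.17.1). The script was tested on simulated data.

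Depth was recovered from low values of Ensembl transcripts, of which 96.3 to 96.8% were whole reads within 0.1. As the reads of RPKM were not recovered for all lines, no count test was run. Positions and overlaps are from Gencode vM21 and promoters from RefSeq.

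Members and gene lists were chosen with earlier results of these data known. Named with values in every library are the active-site genes, every member called, and the 3 largest rises and falls; other members are given by subcomplex, and of other lists the genes called and the 2 most abundant. *Psmb8*, *Psmb9*, *Psma1*, *Psme1*, *Psmd11*, *Psmg4* and *Nfe2l1* were given by library or singled out after their values were seen. The ratios were not among the results set in advance. *Paaf1* and *Adgre1* matched no symbol, and 1 gene of the ubiquitin list is not reported here. Alternatives were another pseudocount (0.1), filter (5 or none), scaling, replicate block, RefSeq lines alone, the median over lines, repeats kept, robust empirical Bayes and each library left out.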

Additional observations from a re-analysis of the deposited data

How the results depend on the processing

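The median log2 fold change of the members was 0.11 to 0.26 over all alternatives. The number of members that rose, 5, became 3 without a filter on low values (6.1% of members against 1.96% of all genes), 4 at a mean RPKM of at least 5 (11.4% against 8.70%), 7 with RefSeq lines alone, which add *Psmc5* and *Psmd11* (15.6% against 14.0%), and 0 to 17 with each library left out in turn (1.11 to 23.3% of all genes), and the number that fell, 2, became 0 without a filter (2.76% of all genes), 1 at a mean RPKM of at least 5 (9.42% of all genes) and 0 to 2 with each library left out (2.04 to 17.8% of all genes); leaving out a library leaves fewer samples, and the cause was not tested otherwise. Without a filter, 13 members were higher and 3 lower at an unadjusted p under 0.05 (limma). Whether the shared replicate numbers pair the libraries is not known. The correlations of the deviations of same-numbered libraries were 0.287, −0.288 and −0.418, and not every library went best with its own number. With 3 libraries per group, these values cannot exclude a pairing. With the replicate block, 2 members rose, *Psmc2* and *Psmc6*, and 2 fell, or 4.3% each against 6.38% higher and 7.91% lower over all genes. Values near 0 changed sign: *Psma3* (0.079) with the median over lines, *Psmd10* (−0.0022) with RefSeq lines alone and *Psmf1* (−0.021) with scaling by the median of ratios. With each library left out, the lowest and highest values were −0.0585 and 0.0345 for *Psma3*, −0.133 and 0.000215 for *Psmb2*, −0.106 and 0.00434 for *Psmb3*, −0.0343 and 0.127 for *Psmb5*, −0.0746 and 0.0352 for *Psmb7*, −0.154 and 0.0248 for *Psmc3ip*, −0.000976 and 0.0798 for *Psmd10*, −0.0766 and 0.0140 for *Psmd12*, −0.109 and 0.0126 for *Psmd3* and −0.118 and 0.191 for *Psmf1*. None of these genes was called in any setting. Groups of 3 libraries limit what can be called, and replicates 3 of both groups were the least deeply sequenced.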
